A study of Mus musculus with 48 samples.

Results

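The 9 genes described here mark the cells that wrap the blood vessels of the brain. Rgs5, Pdgfrb, Kcnj8, Abcc9, Vtn and Anpep are widely used as markers of pericytes, and Acta2, Tagln and Myh11 as markers of vascular smooth muscle. They were taken by symbol, and all 9 were present once in each of the 2 deposited expression tables, among 27082 genes in the table of C57BL/6J (B6) mice and 18939 in the table of APOE-TR mice, of which 16952 were in both. RNA of the cerebral cortex was measured by RNAseq in 48 mice, to ask how long exposure to nPM, a nano-sized fraction of urban particulate matter collected beside a freeway, acts on the cortex and whether sex and APOE allele alter the response. There were 12 groups of 4 mice. The B6 mice (genotype Wt, with the mouse Apoe gene) were 4 months old and had 8 weeks of exposure. The APOE-TR mice carried human APOE3 (E3) or APOE4 (E4) in place of mouse Apoe, were 6 months old and had 15 weeks of exposure. Within each genotype, females (F) and males (M) breathed either nPM or filtered air (Ct), for 5 h on 3 days of each week. Strain, age, length of exposure and batch of nPM therefore changed together between the B6 and the APOE-TR mice, and the 2 tables were normalized separately.

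Pericytes sit on the outside of capillaries within the basement membrane they share with the endothelium, and smooth muscle cells ring the arterioles upstream of them. Together these mural cells set vessel diameter and help to maintain the blood-brain barrier. Endothelial cells secrete PDGF-B, and its receptor PDGFRβ, encoded by Pdgfrb, draws pericytes to the vessel and keeps them there. Kcnj8 and Abcc9 encode the pore Kir6.1 and the regulatory subunit SUR2 of an ATP-sensitive potassium channel, Rgs5 encodes a brake on G protein signalling, Vtn the matrix protein vitronectin, and Anpep the surface peptidase CD13. The products of Acta2 (smooth muscle α-actin), Tagln (SM22, an actin-binding protein) and Myh11 (smooth muscle myosin heavy chain) form the contractile apparatus.

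The promoters of Rgs5 and Acta2 are shown. Rgs5 was the member called between E4 and E3 in the model over all mice, and Acta2 was the only smooth muscle member with a promoter entry. The sequences are from RefSeq, build GRCm38.p6 (mm10), from 250 bases before the start of transcription to 50 bases after it, for Rgs5 at chr1:169655251-169655550 on the plus strand and for Acta2 at chr19:34255324-34255623 on the minus strand. Capitals mark TATATA in both and, in Acta2, 2 near matches to the CArG box, the site of serum response factor.
Rgs5: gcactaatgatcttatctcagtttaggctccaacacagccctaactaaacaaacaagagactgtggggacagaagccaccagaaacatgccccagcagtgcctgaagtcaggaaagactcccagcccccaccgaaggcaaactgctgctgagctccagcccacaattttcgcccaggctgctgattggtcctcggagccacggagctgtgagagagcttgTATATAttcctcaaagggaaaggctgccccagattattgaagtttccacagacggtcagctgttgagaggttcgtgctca
Acta2: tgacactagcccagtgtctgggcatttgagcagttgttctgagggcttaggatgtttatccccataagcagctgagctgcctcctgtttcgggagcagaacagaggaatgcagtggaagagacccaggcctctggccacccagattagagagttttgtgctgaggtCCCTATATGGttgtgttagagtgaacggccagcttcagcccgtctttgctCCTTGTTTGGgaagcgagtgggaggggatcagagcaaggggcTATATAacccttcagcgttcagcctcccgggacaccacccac
The CArG box was searched as CC, 6 letters that are each A or T, and GG, and the near match as the same box with 1 C or G allowed among those 6; both strands were read. The Acta2 near matches lay at bases 84 to 75 and 34 to 25 before the start. Of 32851 promoters of this length, 8.5% held a near match and 1.63% an exact CArG box. TATATA lay at bases 30 to 25 before the start of Rgs5 and at bases 9 to 14 of the Acta2 transcript, and it occurred in 5.67% of promoters. The Acta2 positions depend on the annotated start. The APOE-TR table puts that start at base 34255374 and the B6 table at base 34255337, which is farther downstream on this minus strand. TATAAA, in 13.6% of promoters, was found in Vtn, as 2 matches on opposite strands that overlap between bases 137 and 130 before the start. GTGGGAA, the RBPJ motif of Notch signalling, was in 6.38% of promoters and in 0 of the 6 members with a promoter entry (Rgs5, Kcnj8, Abcc9, Vtn, Anpep and Acta2). Exact CArG boxes were also in 0 of these 6. Tagln, Myh11 and Pdgfrb had no entry.

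The libraries differed in ways that bear on these genes. By the size of the smallest step between values, the APOE-TR libraries held about 17800000 to 22300000 reads in females and 22400000 to 31300000 in males, and the B6 libraries 2050000 to 24400000. Both tables give CPM, the reads of a gene scaled to the total of its library. Mouse Apoe read 8.81 to 30.7 CPM in the APOE-TR mice and 164 to 503 CPM in the B6 mice. In each mouse the slope of log2 level on log2 transcript length was computed over all genes, relative to each gene's median over the mice of the table, and a negative slope means that long transcripts read low. This slope was -0.583 to -0.00926 in APOE-TR females and 0.0202 to 0.119 in APOE-TR males, without overlap. The lowest were in E3 F Ct mice 61 (-0.583), 6 (-0.434) and 63 (-0.188) and E3 F nPM mouse 55 (-0.256). In these 4 mice mitochondrial transcripts took 100680 to 191950 CPM, against 48300 to 88260 CPM in the other APOE-TR mice. The highest of these others, at 88260 CPM, was E3 F Ct mouse 52, whose slope of -0.151 was also the lowest among them. Leaving out the 4 keeps this mouse, the only E3 F Ct mouse that then remains. The results that rest on E3 females are therefore also given without these 4 mice and with the slope as a covariate, both chosen after seeing the data. The part of library quality in any difference was not tested.

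Per kilobase of the longest transcript, Vtn and Rgs5 stood far above the other members in the 32 APOE-TR mice, with median levels of 16.8 and 16.5 CPM per kb. Pdgfrb followed at 2.62, Tagln at 1.8, Acta2 at 1.33, Kcnj8 at 1.23, Abcc9 at 0.647, Anpep at 0.367 and Myh11 at 0.224 CPM per kb. The potassium channel pore thus read higher per length than its subunit Abcc9, whose gene lies 16.5 kb away on chromosome 6, on the same strand (Kcnj8 chr6:142564939-142571357, Abcc9 chr6:142587862-142702275, both minus). These medians include the females, in which long transcripts read low. In E3 M Ct mice Kcnj8 and Abcc9 were nearer, at means of 1.32 and 0.978 CPM per kb, and Myh11 (0.549) was above Anpep (0.444). The part of the length slope in these levels was not tested. The smooth muscle genes were spread over 3 chromosomes, Acta2 at chr19:34240336-34255374, Tagln at chr9:45929628-45936059 and Myh11 at chr16:14194527-14291409, all on the minus strand. Of the other pericyte genes, Rgs5 is at chr1:169655501-169695814 (+), Pdgfrb at chr18:61045150-61085068 (+), Vtn at chr11:78499120-78502326 (+) and Anpep at chr7:79821803-79842353 (-).

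In the APOE-TR mice every member was above the no-read level in every library, the lowest being 6 reads, for Myh11 in E3 F Ct mouse 61. In the shallower B6 libraries the level without reads was reached by Anpep in 3 mice, Tagln in 2 and Myh11 in 1, so these 3 genes were left out of the fits over 48 mice and some B6 fits. The spread between mice of a group was wide in B6 mice, with a root mean square coefficient of variation of 18% for Rgs5, 56.7% for Acta2 and 107% for Tagln. In APOE-TR mice the same measure was 12.6% for Rgs5, 22.6% for Acta2 and 18.1% for Tagln.

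Some members followed sex in the APOE-TR mice. Myh11 read 1.79 to 4.91 CPM in the 16 males and 0.336 to 1.14 CPM in the 16 females, and Abcc9 read 5.51 to 8.81 CPM in males and 1.98 to 4.19 CPM in females. Pdgfrb ranged from 14.2 to 17.8 CPM in males and from 4.95 to 14.2 CPM in females, with every female below the lowest male. Of all 15970 genes tested 6.69% did not overlap between the sexes, and 11.2% of those with a transcript at least as long as that of Pdgfrb. The sexes of this strain also differed without overlap in the length slope given above, and Myh11, Abcc9 and Pdgfrb have the longest transcripts of the 9 (6.55, 7.5 and 5.42 kb), so that sex and library cannot be told apart here. In the B6 table Myh11 was 0.0346 to 15.1 CPM in females and 1.78 to 6.44 CPM in males, which overlap. When the 8 APOE-TR groups were put in order of mean level for each member, the top group was male for 7 of the 9 members and E3 M for 6, and the bottom group was female for all 9. Over all genes these shares were 39.1%, 21.7% and 58.9%. Of the 63 pairs of neighbours in these orders, 5 (7.94%) did not overlap, against 2.75% over all genes, 4 of them where the order passed from males to females. In B6 mice 0 of 27 neighbouring pairs were apart, and the share over all genes was not computed for those mice.

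Exposure to nPM moved no member past the threshold. In the model over 48 mice, which held sex and genotype as terms and called a gene at an unadjusted p under 0.005 (limma), 0 of the 6 members tested were called, against 1.49% of 11080 genes. Differences are given as log2 of CPM plus 0.5. Rgs5 came nearest, 0.15 lower in nPM mice (-0.15, SE 0.075, adjusted p = 0.345), followed by Vtn (-0.19, SE 0.10, adjusted p = 0.373). The other values were -0.14 for Acta2, -0.12 for Kcnj8, 0.08 for Abcc9 and 0.05 for Pdgfrb. The median over the 6 was -0.13, beside -0.006 over all genes tested. Of the genes related to these members by function, Cspg4, which encodes the NG2 proteoglycan, was higher at p under 0.005 (0.36, SE 0.12). Tgfbr1, a receptor of TGF-β, was lower at p under 0.005 (-0.25, SE 0.084). Both had an adjusted p of 0.302 (limma). Of 20 endothelial markers 0 were called, with a median of -0.04. Because the tissue was bulk cortex, fewer cells of a type and less RNA per cell cannot be told apart in this or any later result.

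Within each genotype and sex the count was also 0, while the share of all genes called was 1.18% in B6 F, 0.234% in B6 M, 0.671% in E3 F, 0.154% in E3 M, 0.266% in E4 F and 0.178% in E4 M. Of the 50 tests of a member in these 6 strata, 5 (10%) had an unadjusted p under 0.05. These were 2 of 9 members in E3 F, where 21% of all genes had such a p, and 3 of 9 in E4 F, against 5.56% of genes. edgeR and DESeq2 on reads recovered from the values also called 0 members in the 4 APOE-TR strata. The share of all genes called with these tools is not given here.

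Acta2 in E4 females gave the clearest separation by nPM, the only test of the 50 in which the groups did not overlap. Over all genes, 1.46% (E3 M) to 6.82% (E3 F) did not overlap in the 6 strata. The E4 F Ct mice read 1.49, 1.51, 1.64 and 2.002 CPM and the E4 F nPM mice 0.932, 1.15, 1.37 and 1.41 CPM. All 4 exposed mice lay below all 4 controls, and 3.45% of all genes did not overlap in this stratum, in either direction. The difference was -0.33 (SE 0.13, exact permutation p = 0.0286, the smallest 4 against 4 can give), and its adjusted p was 0.754 (limma). In the same stratum Rgs5 differed by -0.29 (SE 0.11) and Vtn by -0.24 (SE 0.10), both with overlapping groups and an adjusted p of 0.754. Without E4 F nPM mouse 23, which held the highest Rgs5, Vtn and Acta2 of its group, Rgs5 (-0.38) and Vtn (-0.35) passed p under 0.005 with an adjusted p of 0.879, against 0.282% of genes. Endothelial markers moved the same way there, 19 of 20 below 0 with a median of -0.33, of which 2 were called. Choroid plexus markers were below 0 in 8 of 8 with a median of -1.13. Their sum was high in E4 F Ct mice 38 (1183 CPM) and 7 (350.4 CPM). It was 45.25 and 39.46 CPM in E4 F Ct mice 21 and 26, and 21.1 to 40.6 CPM in E4 F nPM mice. The part of these endothelial and choroid plexus markers in the members' values was not tested.

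In E3 females the pericyte channel gene Kcnj8 read 3.87, 4.38, 4.47 and 4.87 CPM in Ct and 2.57, 2.94, 3.18 and 4.01 CPM in nPM mice, which overlap through nPM mouse 55. The difference was -0.37 (SE 0.14, exact permutation p = 0.0571). Tagln differed by -0.36 (SE 0.15, exact permutation p = 0.0857), Myh11 by 0.47 (SE 0.21) and Pdgfrb by 0.51 (SE 0.34), the last 2 with exact permutation p = 0.114 and 0.2. With the length slope as a covariate Pdgfrb was at -0.18 and Myh11 at 0.12, and Kcnj8 and Tagln were at -0.27 and -0.32. Without the 4 mice the control arm was mouse 52 alone, against 3 nPM mice whose spread it was assumed to share. Pdgfrb and Myh11 were then at 0.08 and -0.04, and Kcnj8 and Tagln at -0.50 and -0.55, values that rest on that 1 control. Without E3 F Ct mouse 52, the control with the least negative slope, Myh11 was called (0.68, adjusted p = 0.105), against 1.69% of genes. In males the exposed and control mice of both alleles overlapped for all 9 members, with differences between -0.12 and 0.19.

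B6 mice gave wide intervals. Acta2 in B6 females read 3.06 to 7.91 CPM in Ct and 1.00, 5.30, 5.48 and 13.2 CPM in nPM mice, a difference of 0.06 (SE 0.55). Mouse 52 of the B6 F nPM group held the highest value of that group for Tagln (13.9 CPM), Myh11 (15.1 CPM) and Vtn (54.5 CPM) as well. Without this mouse Vtn was called in the model over 48 mice (-0.25, adjusted p = 0.349), against 1.14% of genes. In B6 males Tagln was 2.28, 7.44, 9.36 and 17.7 CPM in Ct and 2.38, 4.28, 6.19 and 7.05 CPM in nPM mice, a difference of -0.64 (SE 0.51, exact permutation p = 0.343).

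**Figure D1:**
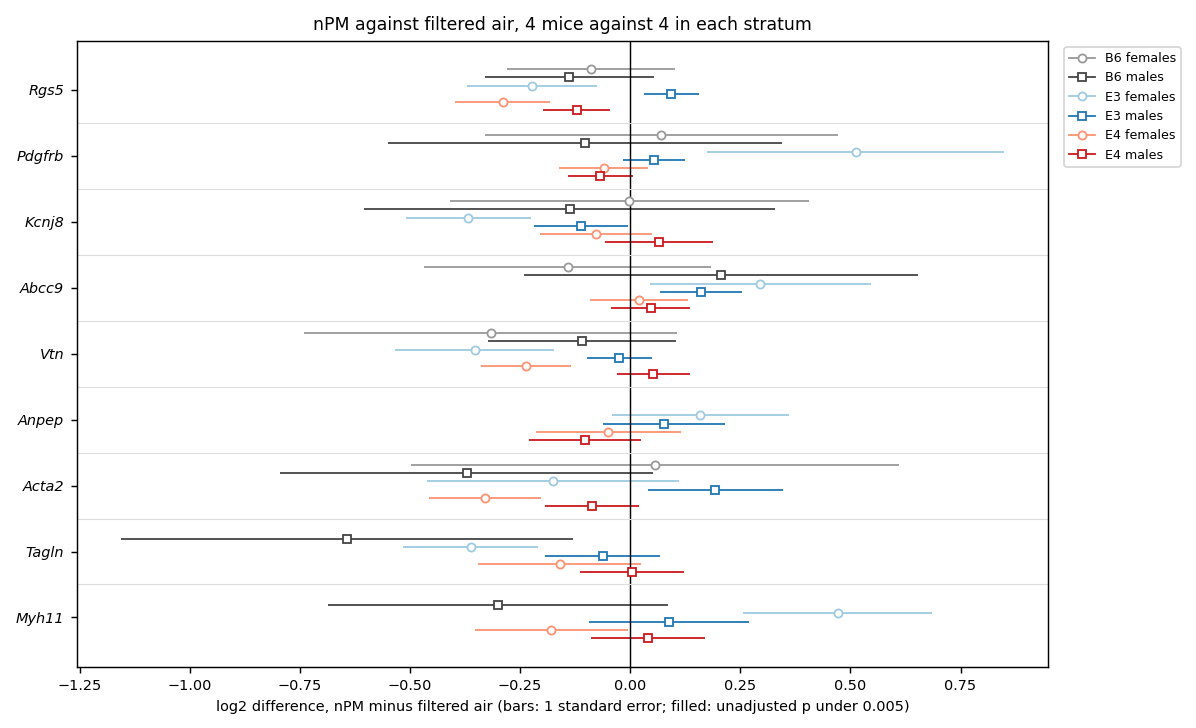
Difference of nPM from filtered air (log2 of CPM plus 0.5, with its SE, 4 mice a side) for each member in the 6 combinations of genotype and sex; open symbols mark p of 0.005 or more. All symbols are open, and the B6 bars are the widest.

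The responses to nPM were compared within the 8 APOE-TR groups. For the difference of the nPM response between alleles, 0 members and 0% of 15970 genes passed a 5% false discovery rate (FDR, limma), with 116 genes (0.726%) and 0 members at an unadjusted p under 0.005 and 0 members at p under 0.05, against 10.6% of genes. For the difference between sexes, 0 members and again 0% of genes passed, with 200 genes (1.25%) and 0 members at p under 0.005. At p under 0.05 there were 2 members, Rgs5 (-0.24, females minus males, SE 0.11) and Vtn (-0.31, SE 0.13), with an adjusted p of 0.261 for both, against 18.7% of all genes, a share near that of the members.

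The next question was how the members differed between APOE alleles. In the model over 48 mice, Rgs5 was 23.6% lower in E4 than in E3 mice (-0.39, SE 0.092, adjusted p = 0.0316), and it was the 1 member called at 5% FDR of 6 tested, against 0.37% of all genes. Acta2 had a difference of -0.44 (SE 0.18, adjusted p = 0.298) that did not pass, and Pdgfrb, Kcnj8, Vtn and Abcc9 were at 0.24, -0.19, -0.15 and -0.06. The Rgs5 call was lost without a filter on low genes (adjusted p = 0.181), without the 4 mice (adjusted p = 0.116) and when any 1 of 11 mice was left out (E3 M Ct 63, E3 F Ct 61, E3 M nPM 53, 56, 58 and 76, E4 F Ct 26 and 38, and E4 F nPM 8, 27 and 39), while its difference stayed between -0.42 and -0.36 over the 48 fits that leave out 1 mouse.

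In males the E3 and E4 levels of Rgs5 did not overlap, in either exposure. Under nPM the E3 males read 88.2, 88.7, 88.8 and 94.4 CPM and the E4 males 56.5, 58.8, 67.5 and 72.6 CPM. Every E4 mouse lay below every E3 mouse, with a gap of more than the range of the E3 group. The level fell by 29.1% (-0.50, SE 0.073, adjusted p = 0.0105, exact permutation p = 0.0286), and Rgs5 was the 1 member called, against 0.498% of 16858 genes. This call remained when each of the 8 mice was left out (-0.57 to -0.44), but it was lost with the variance shared over the 8 groups (adjusted p = 0.0596) and with the length slope as a covariate (adjusted p = 0.0975).

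In filtered air the E3 males read 75.7, 85.1, 85.8 and 93.4 CPM of Rgs5 and the E4 males 65.99, 67.9, 71.6 and 72.6 CPM. The groups again did not overlap, though they came closer than under nPM. The difference was -0.28 (SE 0.065, adjusted p = 0.165, exact permutation p = 0.0286). No member was called at 5% FDR, against 0.439% of genes, and Rgs5 was the 1 member lower at p under 0.005, against 0.848% of genes. The allele difference of Rgs5 under nPM minus that in filtered air was -0.14 over both sexes (SE 0.11, adjusted p = 0.522).

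Among smooth muscle genes, Acta2 under nPM read 3.89, 3.97, 4.11 and 5.79 CPM in E3 males and 2.50, 2.56, 2.99 and 3.08 CPM in E4 males. Myh11 read 3.18, 3.25, 3.80 and 4.91 CPM in E3 and 2.18, 2.50, 2.56 and 2.85 CPM in E4 males. Tagln read 3.06, 3.08, 3.65 and 4.11 CPM in E3 and 2.12, 2.57, 2.92 and 2.97 CPM in E4 males. The E4 mice were below the E3 mice for all 3 contractile genes without overlap, but none passed 5% FDR. Acta2 differed by -0.58 (SE 0.13, adjusted p = 0.116), Myh11 by -0.49 (SE 0.13, adjusted p = 0.214) and Tagln by -0.34 (SE 0.12, adjusted p = 0.396).

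Of the pericyte genes other than Rgs5, Abcc9 alone was apart in exposed males. It read 7.39, 7.99, 8.68 and 8.81 CPM in E3 and 5.74, 6.13, 6.29 and 6.97 CPM in E4 males, a difference of -0.36 (SE 0.085, adjusted p = 0.146). Its partner Kcnj8 was at 0.04 (SE 0.099) there, Vtn at -0.13, Pdgfrb at -0.09 and Anpep at -0.09, all with overlap. In this stratum 5 of 9 members did not overlap, against 5.76% of genes, and 4 of 9 were lower at p under 0.005, against 1.14% of genes. Values below 0 were found in 8 of 9 members, with a median of -0.34 beside 0.003 over all genes. In filtered air 7 of 9 were below 0, with a median of -0.25, and Rgs5 alone did not overlap, against 3.74% of genes. Tagln was at -0.41 (SE 0.13), Myh11 at -0.44 (SE 0.18), Acta2 at -0.30 (SE 0.14), Abcc9 at -0.25 (SE 0.095) and Vtn at -0.21 (SE 0.073) in those mice, with adjusted p from 0.454 to 0.871. The exposed and the control males are separate mice, so these strata share none.

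**Figure D2:**
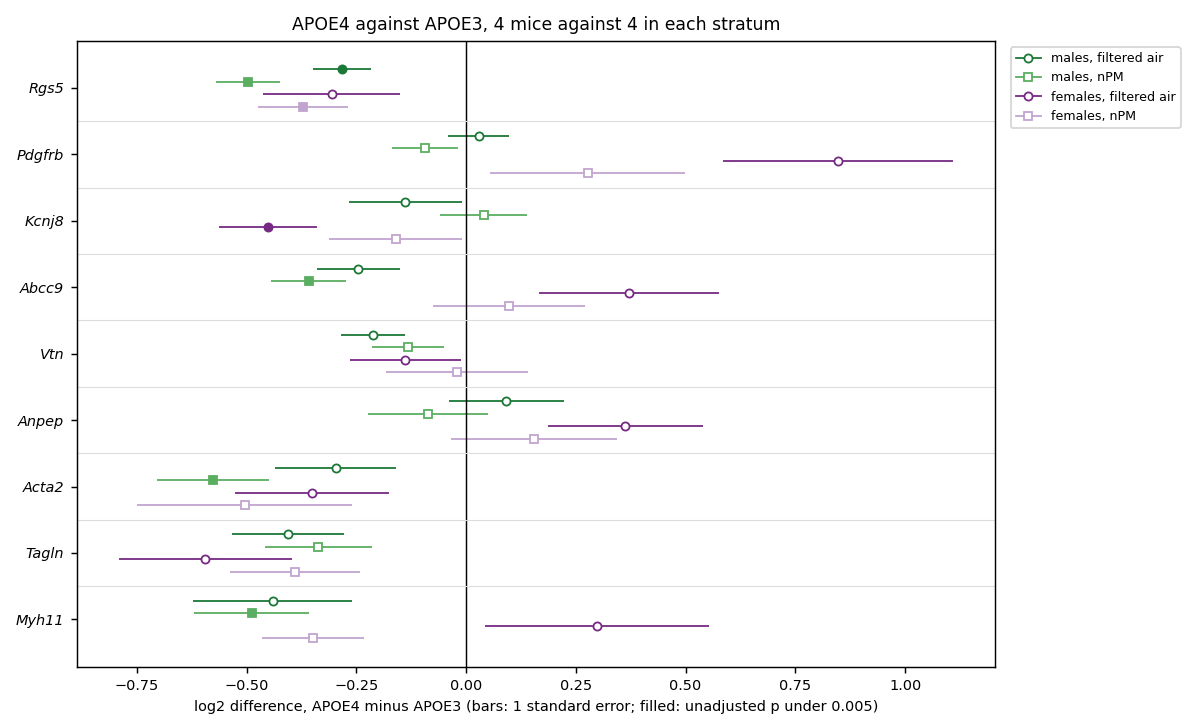
Difference of E4 from E3 mice (log2 of CPM plus 0.5, with its SE, 4 mice a side) for each member within sex and exposure; filled symbols mark an unadjusted p under 0.005. Rgs5 is below 0 in all 4 strata, while Pdgfrb and Abcc9 lie to the right in females in filtered air.

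Females in filtered air gave a mixed pattern, with 4 of 9 members above 0, in the stratum that holds 3 of the 4 mice set apart above, and whose mice are also the controls of the nPM comparisons in females. Kcnj8 read 2.73, 2.75, 3.10 and 3.11 CPM in E4 against 3.87 to 4.87 CPM in E3 mice, a difference of -0.45 (SE 0.11, adjusted p = 0.0766). Tagln read 1.43, 2.24, 2.50 and 2.95 CPM in E4 against 3.20, 3.35, 4.24 and 4.47 CPM in E3 mice, a difference of -0.59 with no overlap. However, 29.1% of all genes did not overlap in this stratum, 3.37% were lower at p under 0.005 and 0.231% passed 5% FDR, with 0 members passing. Pdgfrb went the other way, 11.1, 13.1, 13.6 and 14.2 CPM in E4 and 4.95, 5.82, 8.39 and 11.7 CPM in E3 mice (0.85, SE 0.26, adjusted p = 0.0766, exact permutation p = 0.0571). Its lowest values were those of E3 mice 61, 6 and 63. Abcc9 (0.37), Anpep (0.36) and Myh11 (0.30) were also above 0, and Acta2 (-0.35) and Vtn (-0.14) below, none of them called. Without these mice the E4 group was compared with mouse 52 alone, assuming that it varies as the E4 mice do. Pdgfrb was then at 0.18, Kcnj8 at -0.47 and Tagln at -0.76, none of them called. Rgs5, at -0.31 with all mice (E3 61.4, 69.7, 78.5 and 107 CPM, E4 51.9, 55.8, 65.9 and 65.98 CPM), was at -4.99e-05 without them and at 0.05 with the length slope. Without E3 mouse 52, on the other hand, Pdgfrb (1.08), Kcnj8 (-0.44) and Abcc9 (0.53) were called, with 38.9% of all genes.

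In exposed females Rgs5 and the 3 contractile genes were below 0, and none passed 5% FDR. Rgs5 read 58.7, 63.8, 64.1 and 67.5 CPM in E3 and 42.4, 45.0, 48.7 and 58.4 CPM in E4 F nPM mice. These deposited values were just apart but overlapped after scaling between libraries. The difference was -0.37 (SE 0.10, adjusted p = 0.427, exact permutation p = 0.0571), and at -0.38 it was the same without mouse 55. Rgs5 was the 1 member lower at p under 0.005, against 0.727% of genes, and 0 members passed 5% FDR, against 0.145%. Acta2 was at -0.50 (E3 0.891, 2.17, 2.43 and 2.74 CPM, E4 0.932, 1.15, 1.37 and 1.41 CPM), where E3 mouse 55 gave the lowest value of all 8. Without that mouse the difference was -0.78 (SE 0.14, adjusted p = 0.0653). Tagln and Myh11 were at -0.39 and -0.35, both with exact permutation p = 0.0571.

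Averaged over the 4 strata in the model of the 8 APOE-TR groups, 5 of the 9 members were called at 5% FDR, but so were 29% of all 15970 genes. Rgs5 fell by 22.4% (-0.37, SE 0.057, adjusted p = 0.000104), Tagln by 25.9% (-0.43, SE 0.078, adjusted p = 0.000717) and Acta2 by 25.9% (-0.43, SE 0.097, adjusted p = 0.00545). Kcnj8 fell by 11.6% (-0.18, adjusted p = 0.0322) and Pdgfrb was higher (0.26, SE 0.098, adjusted p = 0.0443). With the length slope as a covariate 3.16% of genes were called. Rgs5 stayed called (-0.29, adjusted p = 0.00200), as did Tagln (-0.46) and Acta2 (-0.46). Myh11 (-0.40, adjusted p = 0.0127) and Abcc9 (-0.21, adjusted p = 0.0384) were now also called. Pdgfrb, at 0.03, lost its call, as did Kcnj8, at -0.13 (adjusted p = 0.344). Without the 4 mice E3 F Ct was mouse 52 alone, so that stratum rested on 1 library. Rgs5 was then at -0.29, Tagln at -0.47, Acta2 at -0.51 and Myh11 at -0.42. Abcc9 was at -0.19, Pdgfrb at 0.04 and Kcnj8 at -0.16.

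Males alone gave a mean difference of -0.39 for Rgs5 (SE 0.080, adjusted p = 0.00956), the 1 member called, against 0.632% of genes. Myh11 (-0.47, SE 0.14, adjusted p = 0.200), Acta2 (-0.44, SE 0.14, adjusted p = 0.263) and Tagln (-0.37, SE 0.11, adjusted p = 0.200) were lower at p under 0.005, which makes 4 of 9 members, against 0.977% of genes. Abcc9 was at -0.30 (SE 0.11, adjusted p = 0.456). The mean of females called 5 members, but 51.5% of genes were called with them. Rgs5 (-0.34), Kcnj8 (-0.31), Acta2 (-0.43) and Tagln (-0.49) were lower and Pdgfrb (0.56) higher in E4 females. With the length slope 0 members and 0.764% of genes were called in females. Without the 4 mice, with mouse 52 alone in E3 F Ct, Acta2 was at -0.58, Tagln at -0.57 and Rgs5 at -0.19.

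The allele difference itself differed between sexes for 2 members, against 20.6% of all genes. The contrast of females with males was 0.59 for Pdgfrb (SE 0.20, adjusted p = 0.0402) and 0.53 for Abcc9 (SE 0.15, adjusted p = 0.0360). The contrast shrank to 0.07 and 0.15 with the length slope, and to 0.13 and 0.23 without the 4 mice, and neither was then called. For Rgs5, Acta2 and Tagln the contrast of the sexes was 0.05 (SE 0.11), 0.01 (SE 0.19) and -0.12 (SE 0.16).

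Within females some members moved with the length slope by mouse. In deviations of both from group means over 16 mice, Pearson's r with the slope was 0.885 for Pdgfrb, 0.846 for Abcc9, 0.631 for Myh11 and 0.471 for Anpep, and -0.67 for Rgs5 and -0.321 for Kcnj8. Vtn, Acta2 and Tagln, the members with the shortest transcripts, were at -0.0512, 0.0133 and 0.0175. In levels, which keep the differences between groups, Vtn was at -0.407, Acta2 at -0.419 and Tagln at -0.576 in these females. In the 16 males Myh11 (0.545), Acta2 (0.493), Tagln (0.479), Abcc9 (0.44), Rgs5 (0.377) and Anpep (0.369) had a positive r, Kcnj8 (-0.496), Vtn (-0.226) and Pdgfrb (-0.0985) a negative one, so that the values did not follow transcript length there. These are descriptions, since slope and levels come from the same libraries.

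**Figure D3:**
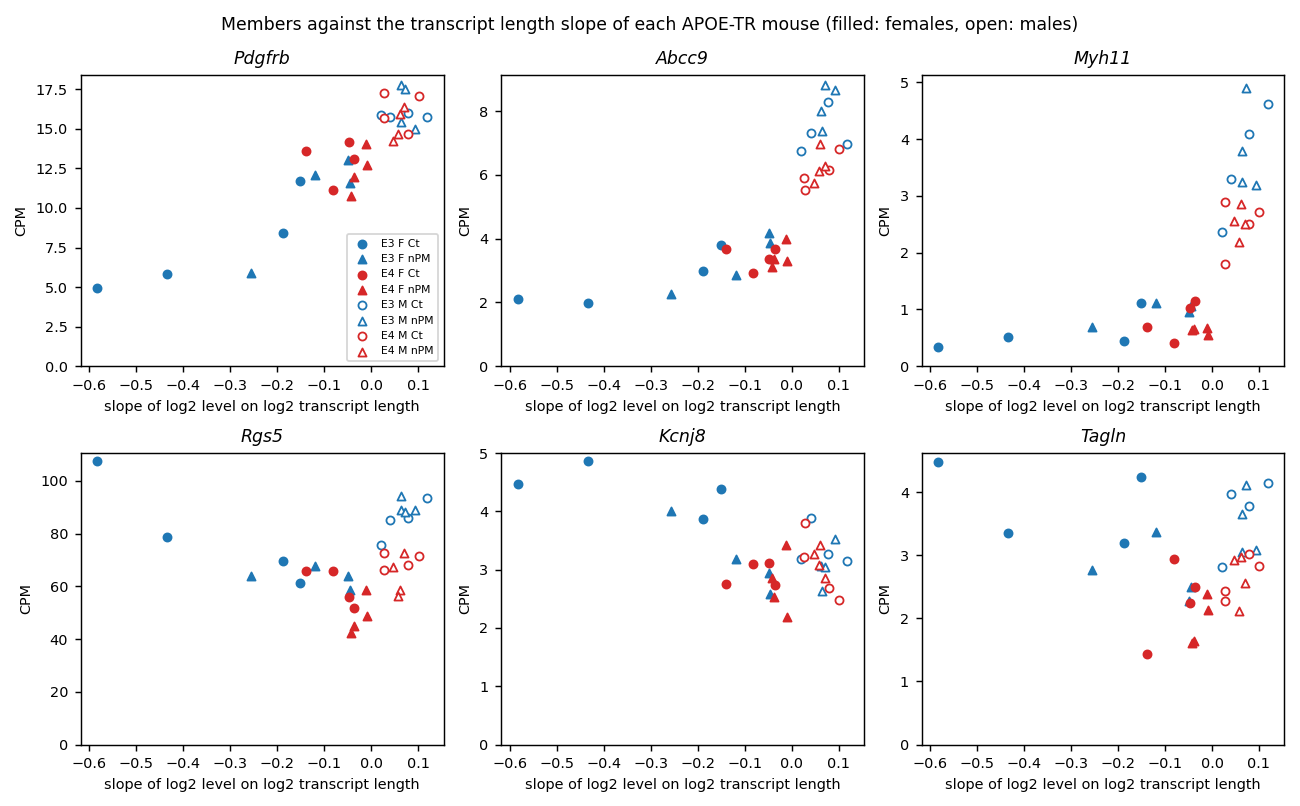
CPM of 6 members against the length slope of each of the 32 APOE-TR mice, filled symbols for females and open for males, blue for E3 and red for E4. The 4 lowest slopes, -0.583 to -0.188, are all E3 females, and Pdgfrb is low in those mice.

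Vessel markers of other cell types were read beside the allele difference in males. Of 20 endothelial markers, 19 were below 0 in the mean of males (median -0.25, beside 0.004 over all genes), with 2 lower at p under 0.005 and 0 at 5% FDR. Under nPM all 20 were below 0 (median -0.27), with 6 lower at p under 0.005 and 2 at 5% FDR. Their summed level was 277 to 373 CPM in E3 males (median 356) and 244 to 324 CPM in E4 males (median 305), with overlap through 1 mouse, E3 M Ct mouse 55, at 277 CPM. The other 7 E3 males read at least 337 CPM, above every E4 male. Under nPM, where Rgs5 alone of the members was called, the sums did not overlap, at 355 to 373 CPM in E3 and 284 to 324 CPM in E4 males. Of 30 other genes known from mural cells, 26 were below 0 (median -0.12) and 0 were called. All 7 astrocyte markers were below 0 (median -0.07), and all 8 choroid plexus and all 6 blood markers tested were above 0 (medians 0.74 and 0.65). The summed choroid plexus level was 601.6 CPM or more in E4 M Ct mice 21 and 91, E4 M nPM mouse 33 and E3 M nPM mouse 76. It was 110.4 CPM or less in the other males. The neuron, microglia, oligodendrocyte and fibroblast markers had medians of 0.05, -0.03, 0.02 and 0.05. The part of the amount of vessel in each sample in the members' differences was not tested.

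**Figure D4:**
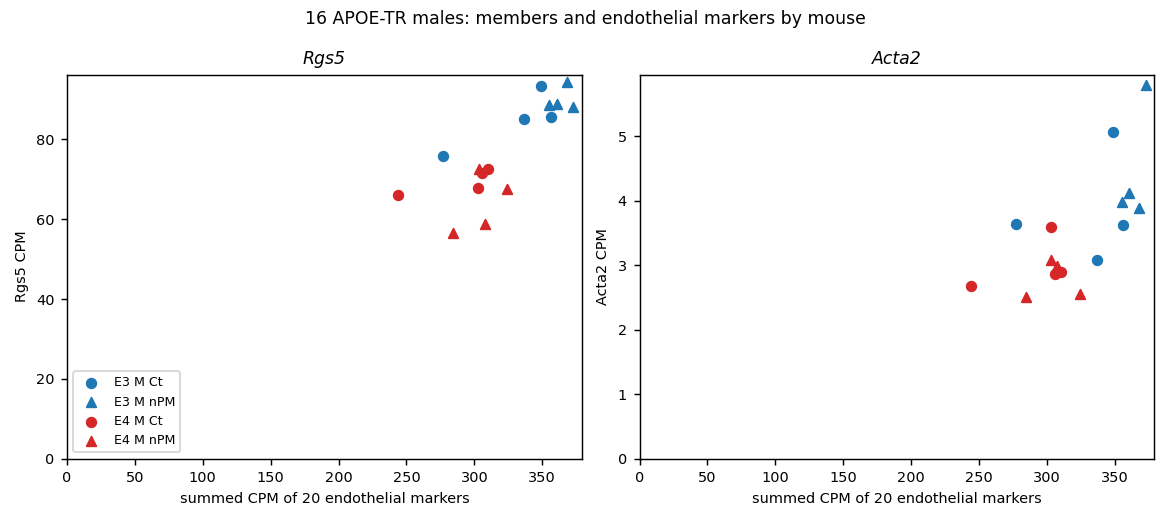
CPM of Rgs5 and of Acta2 against the summed CPM of 20 endothelial markers in the 16 APOE-TR males, blue for E3, red for E4, circles for filtered air and triangles for nPM. The E4 mice lie lower on the Rgs5 axis (56.5 to 72.6 CPM) than the E3 mice (75.7 to 94.4 CPM), and on the endothelial axis they overlap through E3 M Ct mouse 55 (277 CPM) alone. Among nPM mice the alleles are apart on both axes.

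Among related genes, the mean allele difference over the 4 strata called 8 other mural genes lower and 2 higher of 30. Sncg (-0.32) and Myl9, a myosin light chain of smooth muscle (-0.23), had the smallest p of those lower. The 2 higher were Cspg4, the NG2 proteoglycan (0.34), and Notch3, a Notch receptor of mural cells (0.45). Of 17 genes of pericyte recruitment only S1pr1, a sphingosine 1-phosphate receptor, was called (-0.21, adjusted p = 0.00036). Of the regulators of contractile genes, Mkl2 (0.35) and Mkl1 (0.30), cofactors of serum response factor, were called higher and Rhoa (-0.15) lower, of 9 tested. Abcc8 (0.49), which encodes SUR1, the sulfonylurea receptor related to the product of Abcc9, was called higher, and Kcnj11, which encodes Kir6.2, was not (0.15, adjusted p = 0.0929). Nonmuscle myosins Myh10 (0.43) and Myh9 (0.44) were higher and Tagln3 (-0.22), a neuronal relative of Tagln, lower. Endothelial Egfl7 (-0.29) and Itm2a (-0.20) and the astrocyte water channel gene Aqp4 (-0.43) were lower. With 29% of all genes called in this contrast, these counts do not set the lists apart. With the length slope as a covariate, S1pr1 (-0.19), Aqp4 (-0.34) and Mkl2 (0.13) stayed called. Every other gene named here as called lost its call, with Notch3 and Myh9 at 0.004 and 0.001, Cspg4 at 0.12 and Abcc8 at 0.08. Without the 4 mice E3 F Ct was mouse 52 alone, so that part of the mean rested on 1 library. S1pr1 was then at -0.21, Aqp4 at -0.36 and Mkl2 at 0.21. Sncg was at -0.29, Myl9 at -0.27, Myh10 at 0.20, Tagln3 at -0.12 and Egfl7 at -0.23. Cspg4 was at 0.16, Notch3 at 0.06, Mkl1 at 0.15, Rhoa at -0.07, Abcc8 at 0.18, Myh9 at 0.14 and Itm2a at -0.16. In the mean of males, none of the related lists had a gene at 5% FDR (limma), and 1 gene of pericyte recruitment was lower at p under 0.005.

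The members were then compared with each other across mice, in deviations from their group means. Of 36 pairs in the 32 APOE-TR mice, 26 had a positive Pearson's r, with a median of 0.265, and 5 passed after adjustment over the 36 by permutation for both Pearson's r and Spearman's rho. Pdgfrb and Abcc9 were the closest pair (r = 0.839, adjusted permutation p = 0.00612, rho = 0.705, adjusted permutation p = 0.0153), and r was 0.745 without the 2 mice farthest from the median of Pdgfrb. This relation was 0.899 in the 16 females and 0.359 in the 16 males. Vtn and Acta2 followed (r = 0.701, adjusted permutation p = 0.0193, rho = 0.64, adjusted permutation p = 0.0153, and r = 0.491 without 2 mice). Anpep with Acta2 (r = 0.599), Pdgfrb with Myh11 (r = 0.584) and Abcc9 with Myh11 (r = 0.56) were the other 3, at 0.422, 0.456 and 0.423 without 2 mice. Of the 5 pairs, 3 join the members with the longest transcripts, Pdgfrb, Abcc9 and Myh11, which also followed the length slope in females. Without scaling between libraries Abcc9 with Myh11 no longer passed for rho (adjusted permutation p = 0.0548). In males, as a description, the smooth muscle genes were the more alike, with r = 0.798 for Tagln and Myh11, 0.622 for Acta2 and Myh11 and 0.529 for Acta2 and Tagln, where females had 0.0384 for Tagln and Myh11. In the 16 B6 mice 24 of the 36 pairs were positive and 0 passed.

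The genes whose levels were most like the mean of the 9 members over the 32 APOE-TR mice, among 15961 compared in deviations from group means, were Lamc3 (r = 0.795), a laminin chain, Slc22a8 (0.751), an organic anion transporter, Abcb1a (0.746), the P-glycoprotein efflux pump of the endothelium, Pakap (0.737), Bgn (0.723), the proteoglycan biglycan, and Pear1 (0.703). In the 16 males these r were 0.656, 0.59, 0.713, 0.827, 0.635 and 0.257 in the same order. They are given with no p, as the genes were ranked on this measure.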

How the data were processed

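RNA of the cerebral cortex was extracted with TRIzol and columns, and stranded mRNA libraries were sequenced. According to the study's methods and the submitters' processing notes, the authors aligned uniquely mapping reads to the mouse genome (mm10) with TopHat2 2.0.8b and Partek. The deposited values are CPM per gene with no value of 0, so the lowest value of a mouse stands for no reads. Of low APOE-TR values (under 50 times the lowest) 94.2% were whole multiples of it within 0.05, and reads were recovered from it for tests in edgeR and DESeq2. For B6 values this share was 74.1%, and no count test was run. One E3 F Ct column, numbered 6, was assigned to its group only, since its number matches no sample label.

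Values were scaled by TMM (edgeR 4.0.16), logged as log2(CPM + 0.5) and tested with limma 3.58.1 (lmFit, eBayes with trend, R 4.3.3) over genes above the no-read level in every mouse of a fit. The fold changes of low genes are understated on this scale. The response to nPM was called at p under 0.005, and alleles and interactions at 5% FDR by Benjamini-Hochberg, the thresholds of the study. Differences of 4 against 4 mice were also tested exactly over 70 labelings, two-sided. Correlations used 100000 permutations. Lengths were the longest GENCODE vM21 transcript of a symbol, found for 96.8% and 99.3% of tested genes in the APOE-TR and B6 tables. The scripts were tested on simulated data. Nothing in the sources states that the mice of a group came from separate litters or cages. The members and the gene lists were chosen with earlier results of these data known. The genes named beyond the members came from a rule on unadjusted p, per list the first 2 upward and first 2 downward for allele and the first of each for nPM, plus the 6 genes most correlated with the members' mean. The alternatives were other pseudocounts, scalings, filters and tools, and each mouse left out in turn.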

Additional observations from a re-analysis of the deposited data

Results flagged for a closer look

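Among 108 groups of 4 mice tested for a single distant value with Dixon's test, 9 were beyond the 95% limit, and chance flags about 1 group in 20. The 4 highest of these against their group were in B6 or E3 mice. Pdgfrb read 20.41 CPM in B6 M Ct mouse 6, against 3.802 to 5.242 CPM in the other 3 mice. Kcnj8 read 6.674 CPM in B6 F Ct mouse 42, against 1.725 to 2.523 CPM. Acta2 read 13.83 CPM in B6 M Ct mouse 2, against 5.577 to 6.338 CPM, and 5.792 CPM in E3 M nPM mouse 56, against 3.892 to 4.114 CPM.

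One value was far below its group, Acta2 at 2.251 CPM in B6 M nPM mouse 16, against 7.169 to 7.943 CPM. The remaining 4 were nearer to their groups. Vtn read 35.94 CPM in E4 M Ct mouse 91, against 29.54 to 30.42 CPM, and 26.06 CPM in E4 F nPM mouse 23, against 18.89 to 19.46 CPM. Kcnj8 read 3.893 CPM in E3 M Ct mouse 73, against 3.155 to 3.272 CPM. Rgs5 read 94.39 CPM in E3 M nPM mouse 76, against 88.2 to 88.8 CPM.

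The difference of E4 from E3 mice was itself different between females and males for Pdgfrb (0.59 on the log2 scale, females minus males) and Abcc9 (0.53), by the interaction term of the limma fit at 5% FDR, which 20.6% of all genes passed. The values were 0.07 and 0.15 with the length slope as a covariate and 0.13 and 0.23 without the 4 mice with high mitochondrial transcripts, and neither gene was then called.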

How the results depend on the processing

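No result changed direction among those members that passed a threshold. Of 277 values of such members under other settings, 243 kept their side of the threshold, 22 lost it and 12 gained it. The number of members called was within 1.5 times the main count in 175 of 196 counts. The exceptions follow, the cause of each being not tested. The share of all genes called is not given beside most of these counts, which therefore do not set the members apart. In F Ct 41.1% of genes had an unadjusted p under 0.05 in the main fit (limma). With the slope 1.28% of genes were called in the mean of males and 0.764% in the mean of females. For E4 against E3 over 48 mice (1 called) the count was 0 with no filter, 3 with sample quality weights, 3 in the 32 APOE-TR mice alone and 0 without the 4 mice with high mitochondrial transcripts. In F Ct (0) it was 4 with weights, 3 with DESeq2 on recovered reads and 5 with shared variance. In M Ct (0) it was 1 with DESeq2 and 1 with the length slope, and in M nPM (1) it was 3 with DESeq2, 0 with shared variance and 0 with the slope. For the mean of males (1) it was 2 with a pseudocount of 2, 5 with weights, 2 with the slope and 3 without the 4 mice, and for the mean of females (5) it was 0 with the slope and 2 without the 4 mice. The allele by sex count (2) was 0 in both of these. The nPM count in E3 F (0) was 1 with shared variance.

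With 1 mouse left out, the counts ranged from 0 to 1 for allele over 48 mice, 0 to 3 in F Ct, 3 to 7 for the mean of 4 strata, 1 to 2 for males, 5 to 7 for females and 0 to 3 for allele by sex, and for nPM from 0 to 1 over 48 mice, 0 to 1 in E3 F and 0 to 2 in E4 F. In the other fits the count did not change. With all mice 29% of all genes were called for the mean of 4 strata, 51.5% for females and 20.6% for allele by sex. In F Ct without E3 mouse 52 the share was 38.9%. These counts therefore do not set the members apart. edgeR and DESeq2 were not run for the 48-mouse and B6 fits, since reads were not recovered from the B6 values. No paired analysis was possible because animal numbers only name mice and any 2 groups share at most 1 of them. Anpep, Tagln and Myh11 are limited in B6 mice, where single libraries, not the shallowest ones, had no reads of them.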
